A study of Rattus norvegicus with 6 samples.

Results

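The smooth muscle contractile genes described here are Acta2, Myh11, Tagln, Cnn1, Des, Lmod1, Smtn, Synpo2 and Myocd, found by symbol in the deposited count table of rat dorsal root ganglia. All 9 were among the 22864 genes of the table, and 8 of them, all but Myocd, passed the filter on low counts that left 15531 genes for testing. The ganglia, from the L4 to L6 levels on the side of the procedure, house sensory neurons that supply the leg and foot. There were 3 groups of wild-type rats with 2 libraries each, and the O-ring size given is that for males. Strain and age are not stated in the labels. In CPIP rats, the chronic post-ischaemia pain model, an O-ring closed off the hind limb near the ankle joint for 3 h under pentobarbital. The controls were anaesthetised alike but wore no ring. Intrathecal injections were given daily after the first 2 days, and tissue was taken on day 7. Sham+Veh and CPIP+Veh received vehicle, and CPIP+ETA received etanercept, a decoy receptor that captures TNF. A library is named by its group and title number, as in Sham+Veh 1. Nothing in the labels ties a library to its own animal, so each p-value reflects spread between libraries that could be technical.

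Smooth muscle cells wrap the arterioles and larger vessels that feed a ganglion, and their tension sets how much blood passes. Force comes from smooth muscle myosin pulling on actin filaments, with actin-binding proteins that bundle, lengthen or restrain those filaments and desmin filaments that link the cell's force-bearing sites. Serum response factor and its partner myocardin switch on many of these genes together by binding a short DNA element called the CArG box, and vascular smooth muscle cells are known to lower the set when they leave the contractile state.

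Library totals ran from 18284891 to 19981081 counts. The 9 genes together had 1766 to 2791 counts per library, from 760 for Myh11 in Sham+Veh 1 down to 2 for Myocd in Sham+Veh 2. All 12 sensory neuron markers were in the table, none was below 1 CPM, and their summed level was 25770 to 28520 CPM (counts relative to the TMM-scaled library total). CPM is not corrected for gene length, so levels are compared between libraries and not between genes. In a bulk sample, fewer smooth muscle cells and less RNA per cell cannot be told apart.

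**Figure D1:**
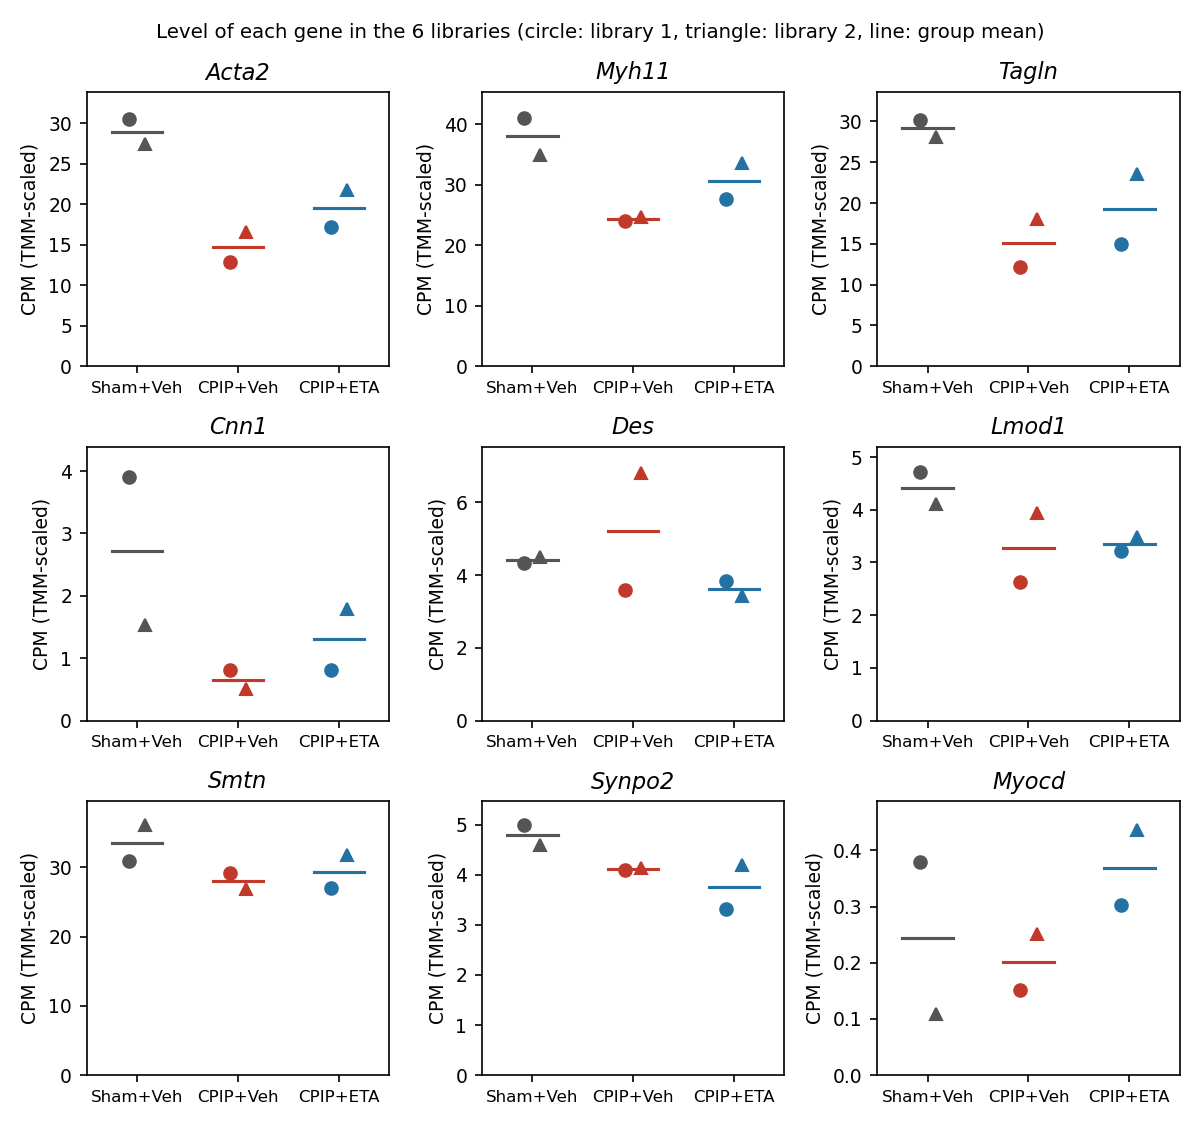
TMM-scaled CPM (vertical axes, starting at 0) of each of the 9 genes in the 6 libraries, by group; circles are library 1, triangles library 2 and lines group means. For Acta2, Myh11, Tagln, Lmod1 and Synpo2 every CPIP library lies below both sham libraries, while Des is highest in CPIP+Veh 2 (6.81 CPM) and Myocd stays under 0.5 CPM throughout.

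The comparison of CPIP+Veh with Sham+Veh addresses the effect of limb ischaemia on the ganglion. Contractile genes lay lower in CPIP+Veh: 7 of the 8 genes tested had a negative log2 fold change, with a median of -0.54, while 51% of all genes tested were negative and their median was 0.00. The filament proteins Acta2, Myh11, Tagln and Cnn1 had an unadjusted edgeR p under 0.05, 4 of 8 in the lower direction against 2.59% of all genes. None passed after adjustment over all genes, where edgeR called 0.0193% (3 of 15531, all higher). DESeq2 called Acta2 and Myh11 lower, where it called 0.315% of all genes in either direction, and limma-voom called neither. Of the 8 genes, 7 lay below sham without overlap, against 19.5% of all genes. The contractile genes were chosen with earlier results of these data known. Shares set beside those of all genes, here and below, therefore describe the set and do not test it.

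Acta2 encodes alpha smooth muscle actin, the thin filament of contractile smooth muscle. It was counted 563 and 502 times in Sham+Veh, 255 and 328 times in CPIP+Veh, then 342 and 400 times in CPIP+ETA. As levels these are 30.5 and 27.5, 12.9 and 16.5, and 17.2 and 21.8 CPM, so the 3 groups do not overlap, with sham highest and CPIP+Veh lowest. CPIP+Veh stood at 14.7 ± 2.57 against 29.0 ± 2.13 CPM in sham (SD, n = 2; log2 fold change -0.98, SE 0.16), with an edgeR adjusted p = 0.377 and a DESeq2 adjusted p = 0.0018. It ranked 25 among the 15531 genes by edgeR p in this comparison. Over the other settings its adjusted p ran from 0.23, with a robust prior, to 1, without Sham+Veh 1. Whichever library was left out, the log2 fold change stayed between -1.17 and -0.81.

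The promoter of Acta2 is shown because its letters match a variant of the CArG box, the element described above. It is the RefSeq window in GRCr8, chr1:241172454-241172753 on the minus strand, from 250 bases before the gene's start to 50 after it. Capitals mark each CCNNNNNNGG in which 1 of the 6 inner bases is G or C and the rest are A or T, a variant of the CArG box; the strict form, with inner bases all A or T, is not in this window. The pattern reads the same on both strands.
Acta2: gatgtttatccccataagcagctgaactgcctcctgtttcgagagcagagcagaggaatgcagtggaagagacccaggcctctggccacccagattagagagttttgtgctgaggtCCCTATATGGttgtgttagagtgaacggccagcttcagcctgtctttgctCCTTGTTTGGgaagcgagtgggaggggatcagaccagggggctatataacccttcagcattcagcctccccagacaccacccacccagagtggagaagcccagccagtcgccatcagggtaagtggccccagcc
The elements CCCTATATGG and CCTTGTTTGG begin 134 and 84 bases before the start. Of 33469 RefSeq promoter windows of this length, 9.42% held at least 1 element of either form and 0.846% held at least 2. Promoter windows were matched for 5 of the 9 genes (Acta2, Cnn1, Des, Smtn and Synpo2), and Acta2 was the one with a match.

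Cnn1 is shown beside it as the gene with the lowest log2 fold change, and its window holds neither form. It lies at chr8:28908187-28908486 in GRCr8, on the plus strand, and has no capitals.
Cnn1: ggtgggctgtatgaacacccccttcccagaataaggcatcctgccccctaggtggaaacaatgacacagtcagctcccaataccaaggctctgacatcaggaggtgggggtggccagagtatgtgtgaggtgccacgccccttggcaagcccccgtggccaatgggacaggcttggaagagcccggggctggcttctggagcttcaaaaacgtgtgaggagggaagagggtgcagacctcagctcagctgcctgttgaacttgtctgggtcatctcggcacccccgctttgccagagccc
A match describes letters and not a bound site, and its absence says only that these letters are not in this window.

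Myh11, the myosin heavy chain of smooth muscle and its motor, was counted 760 and 639 times in Sham+Veh, 473 and 488 in CPIP+Veh, then 550 and 616 in CPIP+ETA. Its levels of 41.15 and 34.97, 23.9 and 24.6, and 27.7 and 33.5 CPM again kept the 3 groups apart in the same order. The 2 CPIP+Veh libraries differed by 1.03-fold and the sham libraries by 1.18-fold. CPIP+Veh stood at 24.3 ± 0.471 against 38.1 ± 4.37 CPM in sham (SD, n = 2). Its log2 fold change was -0.65 (SE 0.12), with an adjusted p = 0.477 by edgeR and 0.0254 by DESeq2; over the other settings its adjusted p ran from 0.319 to 1.

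Tagln encodes transgelin (SM22 alpha), an actin-binding protein of smooth muscle. Its levels were 30.2 and 28.1 CPM in Sham+Veh, 12.1 and 18.1 in CPIP+Veh, then 14.96 and 23.52 in CPIP+ETA. Both CPIP groups lay below sham, but the CPIP groups overlapped each other and their libraries differed by 1.49-fold and 1.57-fold. The log2 fold change in CPIP+Veh was -0.95 (SE 0.25, edgeR adjusted p = 0.85, DESeq2 adjusted p = 0.127).

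Cnn1, calponin, restrains myosin activity on the thin filament. It was counted 72 and 28 times in Sham+Veh, 16 and 10 in CPIP+Veh, then 16 and 33 in CPIP+ETA, which is 3.90 and 1.53, 0.81 and 0.504, and 0.806 and 1.80 CPM. CPIP+Veh lay below sham, but the sham libraries differed by 2.54-fold and CPIP+ETA overlapped both other groups. The log2 fold change was -2.04 (SE 0.61, edgeR adjusted p = 0.938), and leaving out Sham+Veh 1 gave -1.21, leaving out Sham+Veh 2 -2.56.

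Lmod1, leiomodin, nucleates actin filaments in smooth muscle. It stood at 4.71 and 4.10 CPM in Sham+Veh, 2.63 and 3.93 in CPIP+Veh, then 3.22 and 3.49 in CPIP+ETA. Every CPIP library was below both sham libraries, though CPIP+Veh 2 came close to Sham+Veh 2. Its log2 fold change in CPIP+Veh was -0.42 (SE 0.24, edgeR adjusted p = 0.948), -0.74 without CPIP+Veh 2 and -0.16 without CPIP+Veh 1.

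Smtn and Synpo2 encode smoothelin and synaptopodin 2 (myopodin), actin-associated proteins that cells other than smooth muscle also make. Smtn had 31.0 and 36.2 CPM in Sham+Veh, 29.2 and 26.9 in CPIP+Veh, then 27.0 and 31.8 in CPIP+ETA, with a log2 fold change of -0.26 in CPIP+Veh (SE 0.12, edgeR adjusted p = 0.938). Synpo2 had 4.98 and 4.60, 4.10 and 4.14, and 3.32 and 4.19 CPM, with a log2 fold change of -0.22 (SE 0.19, edgeR adjusted p = 0.955). These were the differences nearest 0 among the 7 negative ones. Both genes were lower in CPIP+Veh than in sham without overlap, and CPIP+ETA overlapped sham for Smtn but not for Synpo2.

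Des, desmin, forms intermediate filaments in smooth, skeletal and cardiac muscle. Its counts were 80 and 82 in Sham+Veh, 71 and 135 in CPIP+Veh, then 76 and 63 in CPIP+ETA. Without the single high value, in CPIP+Veh 2, the range over the other libraries was 63 to 82 counts. The log2 fold change in CPIP+Veh was 0.24 (SE 0.30, edgeR adjusted p = 0.962) and it turned to -0.29 without CPIP+Veh 2. CPIP+Veh 2 was also the library with the highest summed level of the 16 skeletal and cardiac muscle markers: 124.9 CPM, against 26.1 in CPIP+Veh 1, 24.6 and 47.1 in Sham+Veh, and 18.5 and 70.7 in CPIP+ETA. In CPIP+ETA 2, second in that sum, Des was at its lowest, 3.43 CPM. The part of skeletal muscle RNA in the Des values was not tested.

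Myocd encodes myocardin, the coactivator of serum response factor. It was counted 7 and 2 times in Sham+Veh, 3 and 5 in CPIP+Veh, then 6 and 8 in CPIP+ETA (31 in all) and was not tested. The ratio of CPIP+Veh to sham was 0.825 (95% exact Poisson interval 0.277 to 2.41) and that of CPIP+ETA to CPIP+Veh 1.81 (0.71 to 4.99), intervals that cover counting error only. No difference in Myocd was detected, and both intervals include a ratio of 1.

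**Figure D2:**
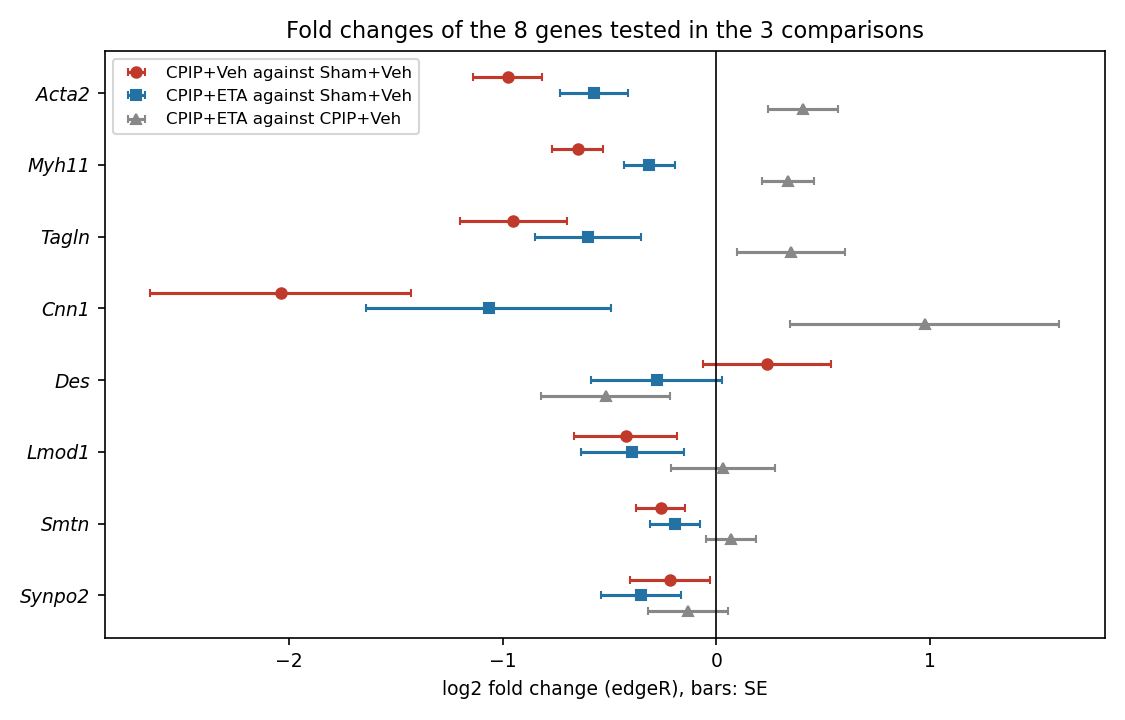
Log2 fold changes (horizontal axis) with SE bars for the 8 genes tested in the 3 comparisons. In CPIP+Veh against Sham+Veh, Cnn1 (-2.04), Acta2 (-0.98) and Tagln (-0.95) lie farthest to the left, and Des (0.24) is alone on the right.

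Etanercept was compared with vehicle in the model to see what it changed. Acta2 and Myh11 stood higher in CPIP+ETA than in CPIP+Veh without overlap, the 2 of 8 genes to do so against 15.7% of all genes tested. For 8 genes, a count of 2 is not far from that share. Acta2 stood at 19.5 ± 3.22 against 14.7 ± 2.57 CPM (SD, n = 2; log2 fold change 0.40, SE 0.16) and Myh11 at 30.6 ± 4.13 against 24.3 ± 0.471 CPM (0.33, SE 0.12). Both had an unadjusted edgeR p under 0.05, which 2.42% of all genes reached on the higher side, and an adjusted p = 0.938. Of these 2, neither kept an unadjusted p under 0.05 without CPIP+Veh 1 or without CPIP+ETA 2, and 1 did without CPIP+Veh 2 or without either sham library. No gene was called by edgeR in this comparison (0% of 15531; 376 genes were higher and 424 lower at an unadjusted p under 0.05); DESeq2 called 0.135% of all genes, 21, and none of the 8.

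Markers of other cells were read in the same comparison, and their part in the Acta2 and Myh11 values was not tested. All 5 red blood cell markers tested lay above 0 (median 1.12), 4 of them without overlap, and the 6 listed summed to 17.2 and 51.5 CPM in CPIP+Veh, then 150.1 and 93.1 in CPIP+ETA, against 41.8 and 46.9 in sham. Hbb, a beta globin gene, had the log2 fold change 2.03 (SE 0.45, edgeR adjusted p = 0.924), the highest of the list. Alas2 had 1.12 (SE 0.79) and Slc4a1 0.34 (SE 0.71). Of 12 endothelial markers 8 lay above 0 (median 0.13), 5 of them without overlap. Of 10 pericyte markers 6 lay below 0 (median -0.09), but Rgs5 had 0.31 (SE 0.12) without overlap. Of 12 fibroblast markers 9 lay below 0 (median -0.14). Among 6 adipocyte markers 5 lay above 0 (median 0.05), with Adipoq and Fabp4, both low in counts, higher without overlap. Of 7 satellite glia markers 6 lay above 0 (median 0.10), 3 of them without overlap. Medians were 0.00 for sensory neurons, -0.12 for Schwann cells and -0.73 for skeletal and cardiac muscle. No marker of these lists was called by edgeR or DESeq2 in this comparison.

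The other genes overlapped between the CPIP groups. Cnn1 had a log2 fold change of 0.97 (SE 0.63) and Tagln 0.35 (SE 0.25), Smtn 0.07 (SE 0.12) and Lmod1 0.03 (SE 0.24), Synpo2 -0.13 (SE 0.19) and Des -0.52 (SE 0.30). The median of the 8 was 0.20, against 0.00 over all genes. It was -0.019 without CPIP+ETA 2, the CPIP library in which Acta2, Myh11, Tagln and Cnn1 were highest, and Tagln then had -0.012 and Cnn1 0.29. Cnn1 had 1.45 without CPIP+ETA 1. The Des value was 0.015 without CPIP+Veh 2. The CPIP+Veh libraries serve both this comparison and the one with sham, so that their chance deviations move the comparisons in opposite directions.

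CPIP+ETA was also set against Sham+Veh, to see what remained different under etanercept. All 8 genes had negative log2 fold changes (50.7% of all genes tested did), with a median of -0.37, and 6 of 8 lay below sham without overlap, against 18.5% of all genes. Acta2 had -0.57 (SE 0.16), Tagln -0.60 (SE 0.25) and Myh11 -0.31 (SE 0.12), the 3 with an unadjusted edgeR p under 0.05, which 3.73% of genes reached on the lower side. Their adjusted p-values were 0.629, 0.779 and 0.759 by edgeR, and none of the 8 was called by edgeR (0.0193% of all genes), by DESeq2 (0.322%) or by limma-voom. No member was below an unadjusted p of 0.05 without Sham+Veh 1 or without CPIP+ETA 1. Cnn1 had -1.06 (SE 0.57) with overlap, and it was -0.23 without Sham+Veh 1. Lmod1, Synpo2 and Des had -0.39 (SE 0.24), -0.35 (SE 0.19) and -0.28 (SE 0.31), each below sham without overlap. The sham libraries are shared with the comparison of CPIP+Veh with sham.

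Taking the 4 CPIP libraries against the 2 of sham, 5 of the 8 genes (Acta2, Myh11, Tagln, Lmod1 and Synpo2) were lower in every CPIP library, which held for 8.38% of all genes. In 6 of 8, group means ran from CPIP+Veh through CPIP+ETA to sham (16.6% of all genes). Among these, neighbouring groups were separated at both steps for Acta2 and Myh11 only; for Tagln, Cnn1, Lmod1 and Smtn the CPIP groups overlapped. Summed over the 9 genes, levels were 151 and 142 CPM in Sham+Veh, 89.4 and 102 in CPIP+Veh, then 98.3 and 124 in CPIP+ETA.

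**Figure D3:**
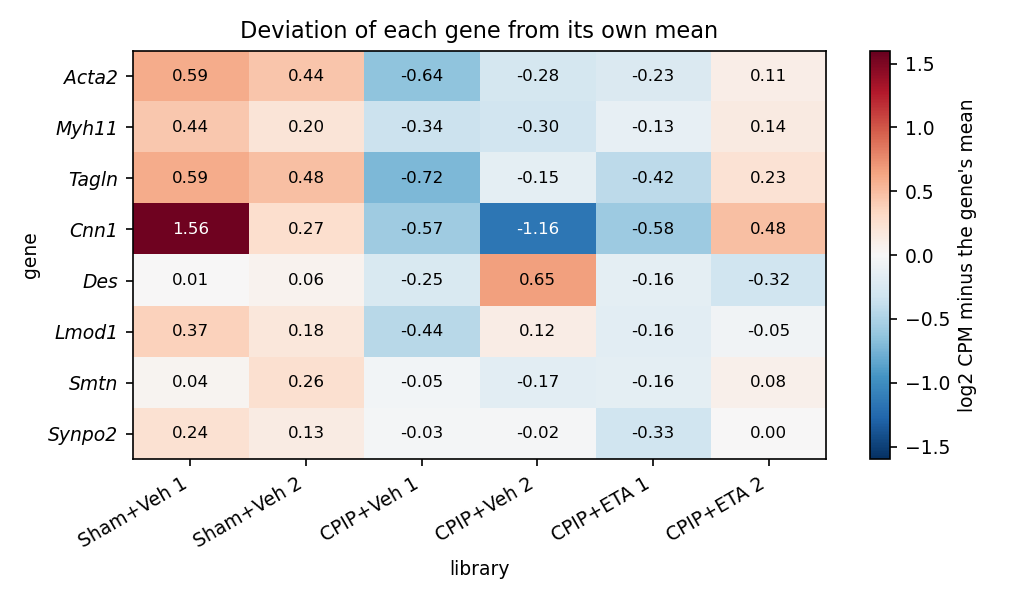
Log2 CPM of each tested gene minus its own mean over the 6 libraries (colour and number), genes in rows and libraries in columns. Sham+Veh 1 is above the mean for all 8 genes, and CPIP+Veh 1 is below it for all 8, from -0.03 for Synpo2 to -0.72 for Tagln.

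Ratios between members put depth and scaling aside. The count of Acta2 relative to that of Myh11 was 0.741 and 0.786 in Sham+Veh, 0.539 and 0.672 in CPIP+Veh, then 0.622 and 0.649 in CPIP+ETA, lower in each CPIP library than in sham. Smtn relative to Myh11 was 0.753 and 1.03 in Sham+Veh, 1.22 and 1.09 in CPIP+Veh, then 0.973 and 0.948 in CPIP+ETA, highest in CPIP+Veh. That of Lmod1 overlapped between sham (0.115 and 0.117) and CPIP+Veh (0.11 and 0.16). These ratios were chosen after their values were seen and were not tested.

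Acta2 belongs to a family of near-identical actins, and how the authors' counting split shared reads is not stated in the labels, so single values are uncertain. Actg2, the gamma actin of smooth muscle, was counted 116 and 40 times in Sham+Veh, 7 and 16 in CPIP+Veh, then 10 and 38 in CPIP+ETA. Its log2 fold change in CPIP+Veh was -2.85 (SE 0.81), lower than sham without overlap, with an unadjusted edgeR p under 0.05 that did not survive adjustment. Acta1, the skeletal muscle actin, had 172 and 259, 182 and 616, and 129 and 334 counts, highest in CPIP+Veh 2 as were Myh1, Atp2a1 and Actn3. Acta2 was highest in Sham+Veh 1. In each CPIP group library 2 had more of both Acta1 and Acta2 than library 1, while Sham+Veh 2 had more Acta1 and less Acta2 than Sham+Veh 1. The part of Acta1 reads in the Acta2 values was not tested. Actc1, the cardiac actin, had 0 to 3 counts. Summed over the 4 muscle actins, levels were 46.1 and 43.8 CPM in Sham+Veh, 22.5 and 48.4 in CPIP+Veh, then 24.4 and 42.1 in CPIP+ETA. In that sum CPIP+Veh overlapped sham, with Acta1 the largest part in CPIP+Veh 2, while both CPIP+ETA libraries stayed below sham.

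Other smooth muscle genes were taken from further lists. Of 20 other filament and adhesion genes, 15 lay below 0 in CPIP+Veh against sham (median log2 fold change -0.17), and Actg2, Myl9 and Nexn reached an unadjusted p under 0.05, all lower. Myl9, the regulatory light chain of smooth muscle myosin, stood at 36.5 and 32.3 CPM in Sham+Veh, 19.5 and 23.8 in CPIP+Veh, then 17.1 and 26.1 in CPIP+ETA, below sham in every CPIP library (log2 fold change -0.67, SE 0.20, in CPIP+Veh and -0.67, SE 0.20, in CPIP+ETA). Nexn, the actin-binding protein nexilin, had -0.54 (SE 0.21) in CPIP+Veh and -0.18 (SE 0.20) in CPIP+ETA. In CPIP+ETA against sham 19 of the 20 lay below 0, with a median of -0.16. Between CPIP+ETA and CPIP+Veh the median was -0.03, with 13 of the 20 below 0 and none at an unadjusted p under 0.05. Myl9 had -0.005 (SE 0.20) there.

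Genes that set tone and calcium responses were centred near 0 (median -0.04 over 21 genes in CPIP+Veh against sham, 14 below 0, 2 lower at an unadjusted p under 0.05). The 3 with the lowest p were Ppp1r14a, an inhibitor of myosin phosphatase (-0.57, SE 0.21), Kcnmb1, the beta subunit of the large-conductance potassium channel of smooth muscle (-1.32, SE 0.52), and Ppp1r12b, a targeting subunit of myosin phosphatase (-0.15, SE 0.06). Ppp1r14a was below sham in every CPIP library, at 2.33 and 2.83 CPM in CPIP+Veh, then 2.37 and 2.18 in CPIP+ETA, against 3.74 and 3.94 in sham. Among 13 regulators tested, 11 lay below 0 (median -0.11) and none reached an unadjusted p under 0.05. Their lowest p belonged to Klf4, a repressor of contractile genes (-0.55, SE 0.28), the Notch ligand Jag1 (-0.15, SE 0.08) and the transcription factor Mef2c (0.18, SE 0.11). In CPIP+ETA against sham the regulators had a median of -0.20, with 3 lower at an unadjusted p under 0.05, and Jag1 had -0.34 (SE 0.08). Between CPIP+ETA and CPIP+Veh the tone and calcium genes had a median of 0.05, with 11 of 21 above 0. The regulators had -0.09 there, with 8 of 13 below 0. Only Klf4 of these 2 lists then had an unadjusted p under 0.05, and it was higher (0.66, SE 0.27). No gene of the 3 further smooth muscle lists was called by edgeR in any comparison.

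Markers of other cells of the vessel wall and its surroundings were read beside the contractile genes, and their part in the result was not tested. Of the endothelial, fibroblast and adipocyte markers none passed adjustment with edgeR in any comparison; DESeq2 called 1 of them, Col15a1, in CPIP+Veh against sham, and 1 endothelial and 2 fibroblast markers in CPIP+ETA against sham, all lower. In CPIP+Veh against sham, 10 of 12 endothelial markers lay below 0 (median -0.26, 5 lower at an unadjusted p under 0.05), and their summed level was 287 to 300.3 CPM in sham, 245 to 258 in CPIP+Veh and 248 to 295 in CPIP+ETA. In CPIP+ETA against sham 8 of the 12 lay below 0, with a median of -0.10. The 3 with the lowest p were Eng, a TGF-beta coreceptor (-0.47, SE 0.12), Plvap, a protein of fenestrated vessels (-0.78, SE 0.22), and Kdr, a VEGF receptor (-0.33, SE 0.09). Of 12 fibroblast markers, 11 lay below 0 (median -0.28, 3 at an unadjusted p under 0.05), led by the collagen genes Col15a1 (-0.73, SE 0.11), Col1a2 (-0.37, SE 0.13) and Col3a1 (-0.33, SE 0.13). They summed to 5432 to 5573 CPM in sham, 4516 to 5252 in CPIP+Veh and 4077 to 4557 in CPIP+ETA. Of 6 adipocyte markers tested, 5 lay below 0 and 3 had an unadjusted p under 0.05 (Adipoq, Fabp4 and Cfd). The 8 listed summed to 25.1 to 27.3 CPM in sham and 14.8 to 24.3 across the CPIP libraries. Adipoq and Fabp4 were low in counts. Adipoq had 1.19 and 0.66 CPM in sham and 0 in both CPIP+Veh libraries. Fabp4 had 3.85 and 1.42 CPM in sham, then 0 and 0.20 in CPIP+Veh.

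Pericytes, the mural cells of capillaries, share a lineage with smooth muscle. Their 10 markers had a median of -0.06 in CPIP+Veh against sham, with 7 below 0 and only Rgs5 at an unadjusted p under 0.05, and they summed to 491 to 497 CPM in sham, 471 to 476 in CPIP+Veh and 443 to 444 in CPIP+ETA. Rgs5, a regulator of G protein signalling, had -0.36 (SE 0.12), the proteoglycan Cspg4 -0.21 (SE 0.11) and the peptidase Anpep -0.39 (SE 0.22). In CPIP+ETA the pericyte median was -0.26, with Rgs5 at -0.05 (SE 0.12) and Cspg4 at -0.36 (SE 0.11). Skeletal and cardiac muscle markers had a median of 1.22 in CPIP+Veh, with Myh1, Atp2a1 and Actn3 at 2.17 (SE 1.07), 2.10 (SE 1.22) and 1.40 (SE 0.91), all highest in CPIP+Veh 2. Medians of sensory neuron, satellite glia and Schwann cell markers were -0.02, -0.05 and 0.01. Of the neuronal markers DESeq2 called Prph higher in CPIP+Veh (log2 fold change 0.18, SE 0.04, edgeR adjusted p = 0.752, DESeq2 adjusted p = 0.0051). The satellite glia marker Fabp7 lay above sham without overlap in CPIP+ETA (0.46, SE 0.11, edgeR adjusted p = 0.531). Red blood cell markers had a median of -0.10 in CPIP+Veh and 1.46 in CPIP+ETA against sham.

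**Figure D4:**
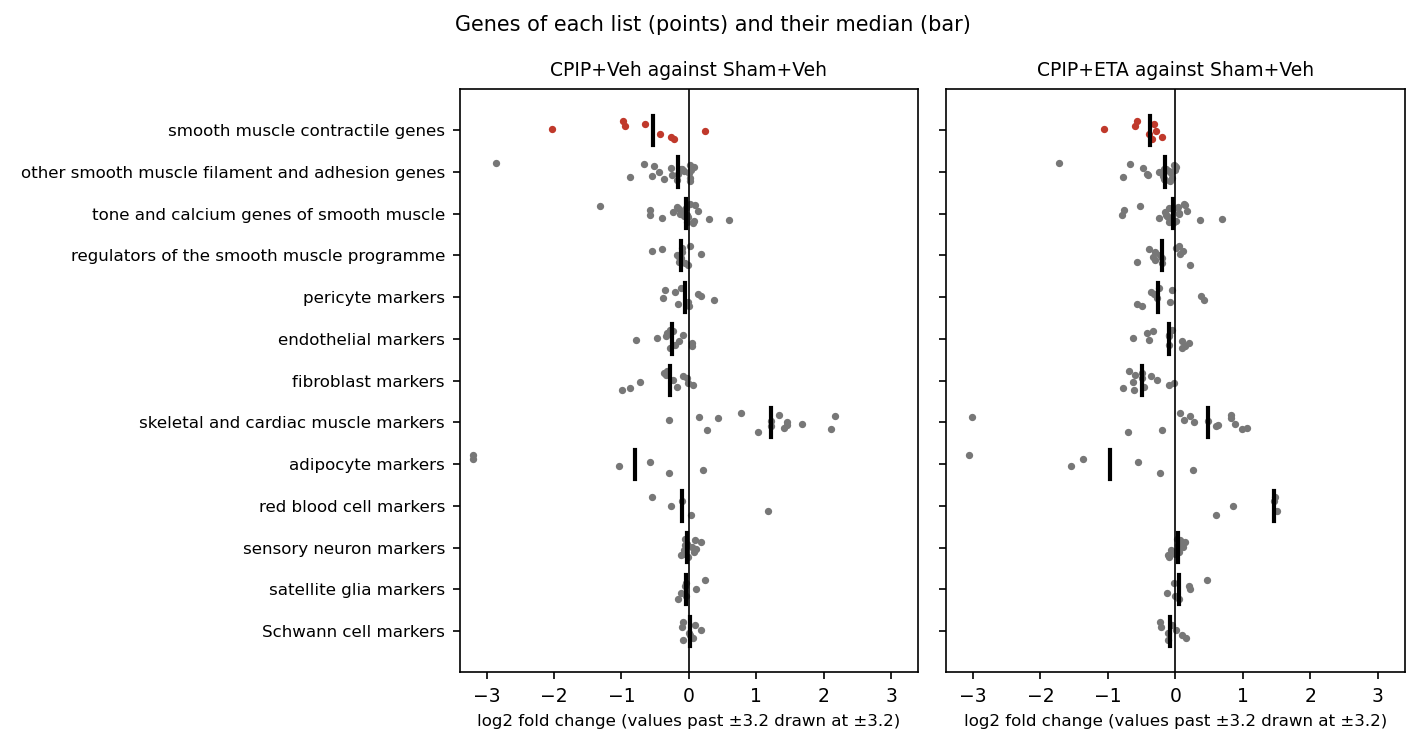
Log2 fold changes (horizontal axes) of the tested genes of each list, as points, with the list median as a bar, for both CPIP groups against sham; smooth muscle contractile genes are in red and values past 3.2 are drawn at the edge. The contractile genes have medians of -0.54 and -0.37, and the medians of the neuronal and glial lists lie close to 0 in both panels. Adipocyte markers have lower medians than the contractile genes (-0.80 and -0.97), over 6 genes of which Adipoq and Fabp4 are low in counts. Fibroblast markers have -0.28 and -0.50. Skeletal and cardiac muscle markers (1.22 and 0.49) lie on the other side.

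The genes whose profile over the 6 libraries was most like the mean of the 8 were Kcnj15, MGC116121, Ift27, Gsn, Plvap, Fam167b, Fbn1, LOC100911813, Cfd and Myl9, of 14424 candidates. Likeness is the mean absolute difference of centred log2 CPM, which ran from 0.053 for Kcnj15 to 0.0987 for Myl9 against a median of 0.282 over all candidates. The members' own values ran from 0.0782 for Myh11 to 0.497 for Cnn1. The potassium channel gene Kcnj15 stood at 5.96 and 4.71 CPM in Sham+Veh, 3.04 and 3.43 in CPIP+Veh, then 2.92 and 4.19 in CPIP+ETA. Fbn1, the microfibril protein fibrillin, stood at 111 and 102, 63.8 and 90.7, and 66.8 and 82.1 CPM. Both were below sham in every CPIP library, while Plvap overlapped sham (10.67 CPM in CPIP+ETA 2, 10.56 in Sham+Veh 2). Since these genes were picked for a profile like that of the members, lower levels in CPIP follow from the choice.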

How the data were processed

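RNA from L4 to L6 dorsal root ganglia was sequenced on the BGISEQ-500, per the labels' protocols. Rnor_6.0 is the only build in the submitters' processing notes; the aligner, counter, use of strand and annotation are not stated in the sources used here. The authors deposited expected counts, estimates per gene that need not be whole. These were rounded before testing, with blank cells read as 0.

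All 6 libraries entered 1 fit with edgeR 4.0.16 (R 4.3.3, quasi-likelihood F-test, TMM scaling, group as sole term). Genes were kept by filterByExpr at a minimum count of 10 and a minimum total of 15, and Benjamini-Hochberg adjustment ran over the 15531 kept. The standard error (SE) equals the absolute log2 fold change over the root of F. There were 3 residual degrees of freedom plus a prior of 3.64. The code was tested on simulated data. Other settings tried were scaling by RLE, upper quartile or library totals, filtering at 1 CPM in 2 libraries or not at all, DESeq2 1.42.0, voom from limma 3.58.1, a robust prior, fits of just the groups compared, blocking on the title number, a threshold of 0.1 for the adjusted p, and dropping each library.

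The 9 genes and all gene lists were chosen with earlier results of these data known. All 9 are named, with the 3 genes of lowest p in CPIP+Veh against Sham+Veh from each further list described. The sensory neuron and glial lists are given by their medians, counts or sums. From them Prph and Fabp7 are also named, chosen after their values were seen. The genes most like the 9 were the 10 with the smallest mean absolute difference of centred log2 CPM (prior count 2, mean of at least 1 CPM). Promoters came from RefSeq (GRCr8), matched by gene identifier. Figures were drawn with matplotlib 3.10.9.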

Additional observations from a re-analysis of the deposited data

How the results depend on the processing

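With DESeq2, 49 genes were called in CPIP+Veh against Sham+Veh (3 with edgeR), 2 of them contractile genes (0 with edgeR), 21 in CPIP+ETA against CPIP+Veh (0) and 50 in CPIP+ETA against Sham+Veh (3). In the last comparison limma-voom called 1 gene and a fit of only those groups 1. Without Smtn and Synpo2 the contractile genes' median log2 fold change was -0.80 in CPIP+Veh against sham. It was 0.34 in CPIP+ETA against CPIP+Veh and -0.48 in CPIP+ETA against sham. In each comparison both genes lay on the same side of the median, so leaving them out had to move it away from 0. With no filter on low counts, which adds Myocd, the medians over 9 genes were -0.42, 0.33 and -0.35 in that order. With each library left out in turn, the counts of genes called ran from 1 to 3, 0 to 0 and 1 to 2 in the order above, and the contractile genes' medians from -0.71 to -0.44, -0.019 to 0.35 and -0.49 to -0.29. Direction turned for some genes when a library was left out: Des in CPIP+Veh against sham (-0.29 to 0.63), and in CPIP+ETA against CPIP+Veh Des (-0.90 to 0.015), Lmod1 (-0.23 to 0.35), Smtn (-0.057 to 0.18), Synpo2 (-0.31 to 0.028) and Tagln (-0.012 to 0.67). No scaling, filter or tool turned a direction. The causes were not tested. Deviations of same-numbered libraries were little correlated (Pearson r across 15531 genes 0.0345, -0.106 and 0.0503 between groups). The labels do not say what the numbers mark, and such values cannot exclude a pairing that affects some genes. With the replicate block the medians were -0.54, 0.20 and -0.38 and the counts of genes called 3, 0 and 3. Depth limits Myocd, and 2 libraries per group limit every test.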
